A study of Mus musculus with 12 samples.

Results

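The genes of the aminoacyl-tRNA synthetases were followed in mRNA and ribosome footprints of RAW264 cells, a mouse macrophage line. Members were taken by symbol (1 capital letter followed by ars or ars2, together with Eprs, Farsa and Farsb), without use of any measured value. This gave 37 of the 9621 genes listed in the deposited tables. Of these, 20 encode cytosolic enzymes or their subunits and 17, with symbols ending in 2, encode mitochondrial enzymes. In mammals, Gars and Kars each give both a cytosolic and a mitochondrial enzyme, and they are counted here with the cytosolic ones. Cells were given lipopolysaccharide (LPS, a component of the bacterial outer membrane that activates macrophages) at 100 ng/ml plus dexamethasone (DEX, a synthetic glucocorticoid) at 10 µM, LPS alone, or neither (basal). Both treatments lasted 30 min. Each of the 3 treatments has 2 libraries of poly(A) mRNA and 2 of ribosome-protected fragments (footprints), labelled as independent biological replicates. All cells received cycloheximide, which holds cytosolic ribosomes on the message, at 100 µg/ml before extraction.

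An aminoacyl-tRNA synthetase joins its amino acid (both glutamate and proline in the case of Eprs) to the tRNAs that carry the matching anticodons. The charged tRNA is then brought to the ribosome by elongation factor eEF1A in the cytosol. Mitochondria charge their own tRNAs with a second set of enzymes, which are encoded in the nucleus, translated in the cytosol and imported. In mammalian cells 8 of the cytosolic genes considered here (Dars, Eprs, Iars, Kars, Lars, Mars, Qars and Rars) encode enzymes of the multisynthetase complex, held together by the scaffold proteins Aimp1, Aimp2 and Eef1e1. Many cytosolic synthetase genes are known targets of the transcription factor ATF4, which is made when amino acids run short or when the kinases of the integrated stress response are active.

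Values are CPM, read counts scaled to the total of a library, and are not scaled by gene length. Libraries held 1475120 to 2529666 reads for mRNA and 821946 to 1833560 reads for footprints. The 2 LPS footprint libraries were the shallowest, at 829415 and 821946 reads, beside 1310291 to 1833560 in the other footprint libraries. The part of this depth in the results that use LPS footprints was not tested. The markers of macrophages were present in every library (13 of 14 listed, none at 0, summed to 8498 to 9925 CPM in mRNA). Tnf, an early LPS target, stood at 1486 and 1152 CPM of mRNA in LPS + DEX cells, 950 and 1419 CPM in LPS cells, and 80.0 and 87.7 CPM in basal cells. Dusp1, a glucocorticoid target, had 223 and 221 CPM of footprints in LPS + DEX cells, 16.9 and 18.2 CPM in LPS cells, and 7.63 and 5.26 CPM in basal cells. Basal replicate 1 of the mRNA assay differed from the rest. Its rank correlations with the other mRNA libraries were 0.78 to 0.83, against 0.89 to 0.98 among the others. Of 17 markers of other cell types, 4 are listed (Krt7, Ddr1, Ren1 and Col3a1), and these summed to 2437 CPM in it, against 18.4 to 82.2 CPM in the other mRNA libraries. Krt7 stood at 1108 CPM, Ddr1 at 923 CPM and Ren1 at 402 CPM there, each at most 4.83 CPM in the other mRNA libraries. Col3a1 was lower there, at 3.39 CPM against 16.2 to 75.1 CPM. Counts that use basal mRNA are also given without this library, and the part of those markers in each result was not tested.

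All 37 synthetase genes were measured in all 12 libraries, and all passed the filter on low values. Cytosolic members had 107 to 1593 reads of mRNA and 92 to 1319 footprint reads in a library. Mitochondrial members had 15 to 389 reads of mRNA and 5 to 399 footprint reads, so their values are less precise. The typical standard error of a log2 fold change was 0.11 for cytosolic footprints and 0.27 for mitochondrial ones.

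The cytosolic synthetases together took a share of the footprints that stayed within a narrow range. It was 0.561% and 0.547% of footprint reads in LPS + DEX cells, 0.579% and 0.566% in LPS cells, and 0.566% and 0.553% in basal cells. LPS replicate 1 was the highest, LPS replicate 2 and basal replicate 1 were level at 0.566%, and LPS + DEX and basal overlapped. Their share of mRNA reads was 0.425% and 0.3998% in LPS + DEX cells, 0.405% and 0.376% in LPS cells, and 0.304% and 0.317% in basal cells, so both treated groups lay above the basal libraries. The mitochondrial enzymes took 0.0700% and 0.0735% of footprints in LPS + DEX cells, 0.0656% and 0.0663% in LPS cells, and 0.0722% and 0.0696% in basal cells, with the LPS libraries lowest. Their mRNA share was 0.0838% and 0.0845% in LPS + DEX cells, 0.0774% and 0.0803% in LPS cells, and 0.0620% and 0.0640% in basal cells. In these bulk libraries, fewer cells with a message and less of it per cell cannot be told apart. Under a scaling by the median of ratios between libraries, the median mRNA change over all genes moved down by 0.26 (LPS against basal) and 0.28 (LPS + DEX against basal) on the log2 scale. The members' median change in mRNA was then close to 0, as given with the comparisons.

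**Figure D1:**
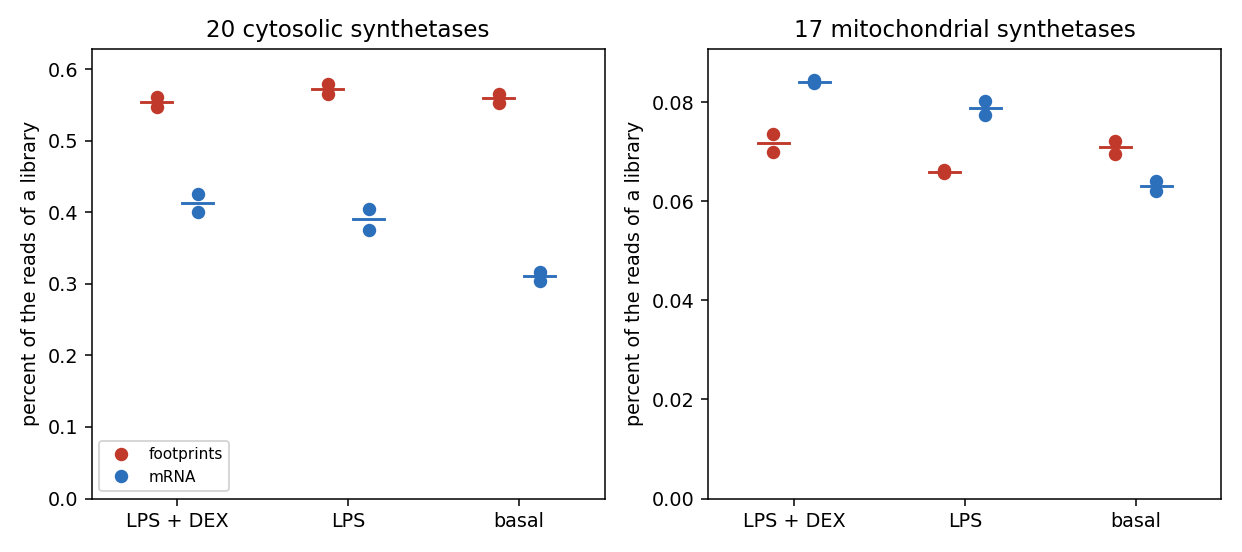
Summed reads of the 20 cytosolic (left) and 17 mitochondrial (right) synthetase genes as a percent of all reads of a library, for LPS + DEX, LPS and basal cells. Points are libraries, bars are means of 2 libraries, and both vertical axes start at 0; the mRNA shares of treated cells lie above the basal ones, while the cytosolic footprint shares all lie between 0.547% and 0.579%.

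Reads behind single members differed widely, and since CPM is not scaled by gene length the values below do not rank expression. Eprs, the double enzyme for glutamate and proline, had 769 and 719 CPM in LPS + DEX cells, 776 and 770.1 CPM in LPS cells and 627 and 659.6 CPM in basal cells of footprints. Its footprints in both treated groups lay above the basal libraries, short of the threshold. The log2 changes against basal were 0.21 (SE 0.08, adjusted p = 0.194) for LPS + DEX and 0.27 (SE 0.08, adjusted p = 0.0698) for LPS. Eprs mRNA was 181 and 269 CPM in LPS + DEX cells, 232 and 167 CPM in LPS cells and 155 and 154 CPM in basal cells. The treated groups overlapped and lay above basal.

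In basal cells the next cytosolic members by footprints were Gars and Sars, described with the footprint changes. At the low end, Cars, the cysteine enzyme, had 117 and 109 CPM in LPS + DEX cells, 133 and 112 CPM in LPS cells and 161 and 149 CPM in basal cells of footprints. Both treated groups lay below basal without overlap but short of the threshold, with -0.45 (SE 0.13, adjusted p = 0.0722) for LPS + DEX against basal. Yars, the tyrosine enzyme, had 148 and 146 CPM in LPS + DEX cells, 186 and 182 CPM in LPS cells and 148 and 157 CPM in basal cells, highest in LPS cells. Phenylalanine tRNA is charged by an enzyme of 2 kinds of subunit, made from Farsa and Farsb.

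Farsa had 126 and 146 CPM in LPS + DEX cells, 141 and 147 CPM in LPS cells and 146 and 126 CPM in basal cells of footprints. Farsa mRNA was 162 and 135 CPM in LPS + DEX cells, 135 and 130.0 CPM in LPS cells and 96.3 and 93.6 CPM in basal cells. Farsb had 206 and 222 CPM in LPS + DEX cells, 203 and 237 CPM in LPS cells and 211 and 231 CPM in basal cells of footprints. Farsb mRNA was 173 and 198 CPM in LPS + DEX cells, 235 and 195 CPM in LPS cells and 176 and 214 CPM in basal cells. The treated groups lay above basal for Farsa mRNA, while all 3 groups overlapped for Farsb mRNA. The footprints of both overlapped in every pair of groups.

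Among the mitochondrial enzymes, Iars2 (isoleucine) had 187 and 218 CPM in LPS + DEX cells, 151 and 193 CPM in LPS cells and 209.9 and 176 CPM in basal cells of footprints, with overlap between all groups. Tars2 (threonine) had 76.8 and 65.4 CPM in LPS + DEX cells, 78.4 and 42.6 CPM in LPS cells and 51.9 and 75.6 CPM in basal cells, also overlapping. In basal cells the fewest footprints came from Pars2 (proline), with 6.65 and 9.27 CPM in LPS + DEX cells, 10.9 and 6.08 CPM in LPS cells and 7.63 and 9.86 CPM in basal cells, from Vars2 and from Sars2.

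Sars2, the serine enzyme of mitochondria, had 24.2 and 26.2 CPM in LPS + DEX cells, 20.5 and 12.2 CPM in LPS cells and 19.8 and 15.1 CPM in basal cells of footprints. Both LPS + DEX libraries lay above the others, but the change against basal was 0.51 (SE 0.31, adjusted p = 0.431). Lars2 (leucine) had 40.5 and 47.4 CPM in LPS + DEX cells, 48.2 and 49.9 CPM in LPS cells and 45.8 and 58.5 CPM in basal cells of footprints. Lars2 mRNA was 56.1 and 44.8 CPM in LPS + DEX cells, 36.6 and 52.7 CPM in LPS cells and 27.8 and 34.6 CPM in basal cells. It was above basal in all treated libraries, short of the threshold, with 0.67 (SE 0.25, adjusted p = 0.089) for LPS + DEX against basal.

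In mRNA, LPS + DEX raised 11 of the 37 synthetase genes relative to basal cells and lowered none that passed (limma, Benjamini-Hochberg adjusted p under 0.05 over all genes tested). They were 7 of the 20 cytosolic and 4 of the 17 mitochondrial genes. Of all 9277 genes tested, 18.5% passed as higher and 4.23% as lower in the same comparison. The members' median log2 fold change was 0.37, beside 0.28 over all genes. LPS alone against basal gave 2 higher members, Vars and Aars, where 9.03% of all genes passed as higher and 1.68% as lower, and the medians were 0.31 for members and 0.26 for all genes. Between LPS + DEX and LPS, limma called 0 members and 0% of all genes, 0 members had an unadjusted p under 0.05, and limma-voom also called 0.

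Vars, the valine enzyme, which in mammals binds the elongation factor eEF1 complex, moved furthest. Its mRNA was 629.7 and 475 CPM in LPS + DEX cells, 408 and 485 CPM in LPS cells and 203 and 193 CPM in basal cells. Every treated library was well above both basal ones, and the treated groups overlapped. The log2 fold change was 1.46 (SE 0.16, adjusted p = 0.0058) for LPS + DEX and 1.16 (SE 0.16, adjusted p = 0.0205) for LPS against basal. Without basal mRNA replicate 1 it was 1.496, adjusted p = 0.000254 and 1.20, adjusted p = 0.00358. The LPS + DEX call was lost without LPS + DEX mRNA replicate 1 (1.26, adjusted p = 0.0711), and the LPS call without LPS mRNA replicate 1 (1.28, adjusted p = 0.0623) or LPS mRNA replicate 2 (1.04, adjusted p = 0.18).

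Aars, the alanine enzyme, had 217 and 192 CPM in LPS + DEX cells, 194 and 183 CPM in LPS cells and 125 and 123 CPM in basal cells of mRNA, again with both treated groups above basal. The change was 0.71 (SE 0.13, adjusted p = 0.0123) for LPS + DEX against basal and 0.59 (SE 0.13, adjusted p = 0.0347) for LPS against basal, and the second of these was lost without basal mRNA replicate 1 (0.60, adjusted p = 0.0684), LPS mRNA replicate 1 (0.55, adjusted p = 0.13), LPS mRNA replicate 2 (0.64, adjusted p = 0.193), LPS + DEX mRNA replicate 1 (0.59, adjusted p = 0.0526) or LPS + DEX mRNA replicate 2 (0.59, adjusted p = 0.0525). It was also lost with limma-voom (adjusted p = 0.0576), the replicate block (adjusted p = 0.0648) and median-of-ratios scaling (0.33, adjusted p = 0.205). Aars overlaps Ddx19b by 3974 bases in the mouse annotation (GRCm38.p6), and Farsb overlaps Sgpp2 by 2332 bases. The other overlaps are short: Iars2 with Rab3gap2 (115 bases), Mars with Ddit3 (71), Wars with Wdr25 (24), Rars2 with Orc3 (7) and Hars with Hars2 (4). No source used here says whether counting kept the strand, and reads at these genes may be shared.

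Kars, the lysine enzyme, had 302 and 271 CPM in LPS + DEX cells, 235 and 253 CPM in LPS cells and 181 and 196 CPM in basal cells of mRNA, with the groups in the order LPS + DEX, LPS, basal and no overlap between them. Its change for LPS + DEX against basal was 0.60 (SE 0.13, adjusted p = 0.0172). Mars (methionine), at 0.80 ± 0.14 (log2 ± SE), Qars (glutamine), at 0.70 ± 0.15, Lars (leucine), at 0.60 ± 0.15, and Farsa, at 0.64 ± 0.15, also passed. Among the enzymes of the multisynthetase complex 4 of 8 passed (Kars, Lars, Mars, Qars), with a median of 0.59. Among the other 12 cytosolic genes 3 passed, with a median of 0.19. The difference between these sets was not tested.

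Of the mitochondrial enzymes, Aars2 (alanine) had 42.7 and 37.2 CPM in LPS + DEX cells, 32.5 and 38.7 CPM in LPS cells and 23.7 and 11.9 CPM in basal cells of mRNA. Vars2 (valine) had 50.2 and 60.3 CPM in LPS + DEX cells, 35.5 and 54.9 CPM in LPS cells and 31.2 and 24.4 CPM in basal cells. In both, every treated library was above the basal ones, and the basal libraries themselves differed, above all for Aars2. The change for LPS + DEX against basal was 1.19 (SE 0.32, adjusted p = 0.0363) for Aars2 and 0.97 (SE 0.26, adjusted p = 0.0358) for Vars2. Sars2, with 40.7 and 34.1 CPM in LPS + DEX cells, 34.3 and 32.9 CPM in LPS cells and 19.7 and 19.5 CPM in basal cells of mRNA, changed by 0.90 (SE 0.21, adjusted p = 0.0237). Tars2, with 123 and 107 CPM in LPS + DEX cells, 96.9 and 114 CPM in LPS cells and 72.5 and 78.5 CPM in basal cells, changed by 0.60 (SE 0.16, adjusted p = 0.0353). The Aars2 call was lost without basal mRNA replicate 2 (0.72, adjusted p = 0.0685), LPS mRNA replicate 1 (1.19, adjusted p = 0.0713), LPS mRNA replicate 2 (1.19, adjusted p = 0.0708), LPS + DEX mRNA replicate 1 (1.10, adjusted p = 0.173) or LPS + DEX mRNA replicate 2 (1.29, adjusted p = 0.106). That of Vars2 was lost without LPS + DEX mRNA replicate 1 (1.10, adjusted p = 0.112) or LPS + DEX mRNA replicate 2 (0.84, adjusted p = 0.154).

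Wars, the tryptophan enzyme, which interferon is known to induce in human cells, had 134 and 144 CPM in LPS + DEX cells, 148 and 125 CPM in LPS cells and 163 and 153 CPM in basal cells of footprints. Wars mRNA was 147 and 127 CPM in LPS + DEX cells, 135 and 112 CPM in LPS cells and 157 and 88.8 CPM in basal cells. The mRNA groups overlapped, with basal replicate 1 the highest library and basal replicate 2 the lowest, and neither treatment passed (LPS + DEX 0.21 (SE 0.26, adjusted p = 0.589), LPS 0.06 (SE 0.26, adjusted p = 0.89), both against basal).

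These mRNA counts rest on few libraries and on the scaling. Without basal mRNA replicate 1, 8 members passed as higher for LPS + DEX and 2 for LPS against basal. Kars (0.54, adjusted p = 0.0547), Lars (0.52, adjusted p = 0.0995) and Tars2 (0.54, adjusted p = 0.0981) were the calls lost for LPS + DEX. The 2 members for LPS were then Vars and Aars2 (1.498, adjusted p = 0.0087). Without LPS + DEX mRNA replicate 1, 0 members and 1 of 9206 genes passed for LPS + DEX against basal, and without its replicate 2, 6 members passed. Leaving out LPS mRNA replicate 1 or 2 left 0 members for LPS against basal, and leaving out basal mRNA replicate 2 gave 4. Under median-of-ratios scaling the members' median was 0.08 for LPS + DEX and 0.05 for LPS against basal, beside -0.0034 and 0.0076 over all genes, and the cytosolic median for LPS + DEX was -0.02. Vars alone of the 37 then passed, with 1.17, adjusted p = 0.00943 for LPS + DEX and 0.90, adjusted p = 0.0357 for LPS.

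**Figure D2:**
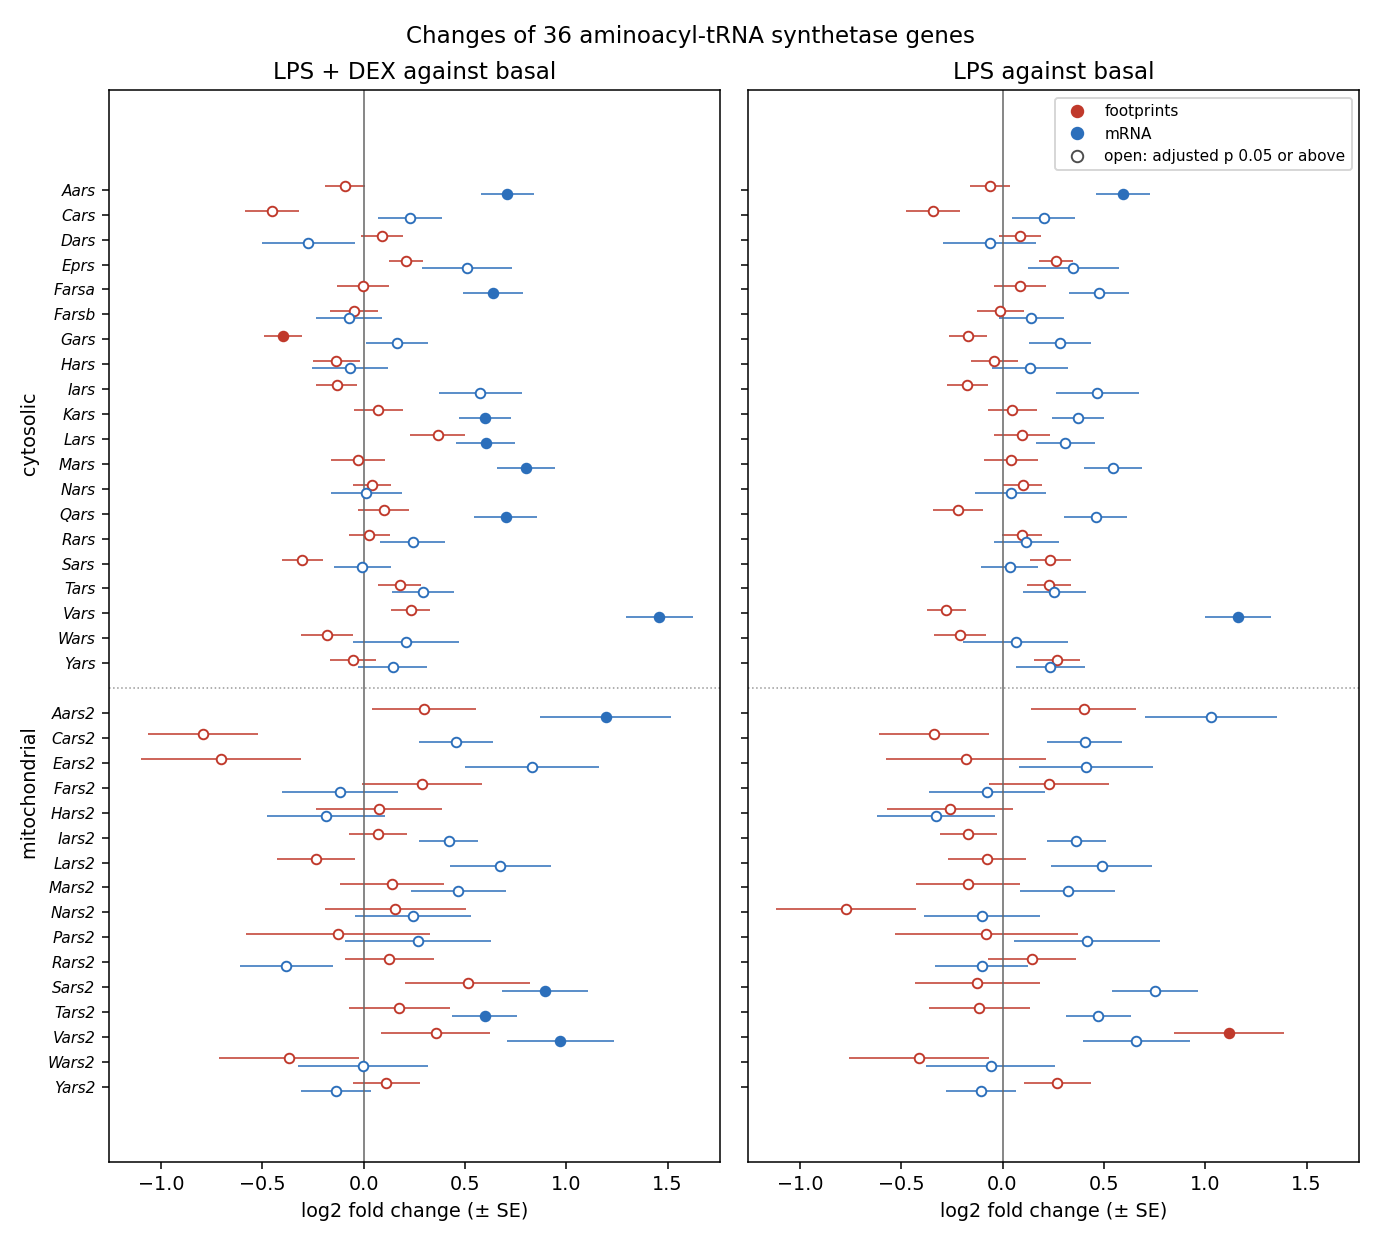
Log2 fold changes of LPS + DEX against basal (left) and LPS against basal (right) for 36 synthetase genes, footprints in red and mRNA in blue, with standard errors from limma; filled points passed an adjusted p under 0.05. Most mRNA points lie right of their footprint points, and Vars mRNA lies furthest right, at 1.46 for LPS + DEX and 1.16 for LPS. Over all genes the median mRNA change also lay above the median footprint change in both comparisons.

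Promoter windows from RefSeq (GRCm38.p6), matched by symbol, were searched for 27 of the 37 members. They ran from 250 bases before to 50 after the start of a gene and were read on both strands for TGATGNAA. These letters are the core of the element that ATF4 binds with C/EBP partners. They were found in 5 of the 13 cytosolic members searched (Aars, Gars, Iars, Tars and Yars) and in 0 of the 14 mitochondrial ones. That is 17.9% of the members' windows searched, beside 3.97% of all 32851 windows of this length. Hars, Hars2, Lars and Nars were among the members left out of the search. The members' share therefore does not cover the whole family, and its difference from the share of all windows was not tested. The windows of 3 of the genes with a match are printed because they differ in the number and place of the match. It stands in capitals and lies on the opposite strand (TTNCATCA). Aars has 2 matches, 112 bases before and 9 bases after the start, Gars has 1 at 30 bases before and Tars 1 at 15 bases before.
Aars, chr8:111033592-111033891, plus strand: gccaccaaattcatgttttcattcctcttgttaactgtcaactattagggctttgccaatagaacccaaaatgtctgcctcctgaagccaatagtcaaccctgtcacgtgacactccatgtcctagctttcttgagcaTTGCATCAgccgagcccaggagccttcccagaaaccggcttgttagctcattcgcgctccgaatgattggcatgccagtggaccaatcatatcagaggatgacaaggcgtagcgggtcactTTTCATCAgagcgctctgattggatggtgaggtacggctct
Gars, chr6:55037751-55038050, plus strand: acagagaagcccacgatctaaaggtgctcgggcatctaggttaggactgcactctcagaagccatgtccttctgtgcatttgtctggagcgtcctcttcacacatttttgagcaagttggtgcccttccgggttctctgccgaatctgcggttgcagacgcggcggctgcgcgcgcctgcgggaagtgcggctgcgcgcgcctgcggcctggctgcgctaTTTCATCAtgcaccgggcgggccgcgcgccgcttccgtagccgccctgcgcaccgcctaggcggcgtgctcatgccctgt
Tars, chr15:11399609-11399908, minus strand: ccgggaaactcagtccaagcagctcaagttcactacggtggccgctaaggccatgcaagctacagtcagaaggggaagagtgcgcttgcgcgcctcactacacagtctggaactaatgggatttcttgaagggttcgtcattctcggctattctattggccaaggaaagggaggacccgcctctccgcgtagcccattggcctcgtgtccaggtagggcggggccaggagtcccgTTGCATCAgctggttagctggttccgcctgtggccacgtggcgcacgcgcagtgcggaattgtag
A match is a description of the sequence and was not tied to binding. The 5 genes with a match had mRNA changes of 0.14 to 0.71 for LPS + DEX against basal, and 1 of them, Aars, passed. Tars had 119 and 131 CPM in LPS + DEX cells, 128 and 115 CPM in LPS cells and 93.6 and 109.9 CPM in basal cells of mRNA, which gave 0.29 (SE 0.15, adjusted p = 0.203) for LPS + DEX against basal.

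Footprints of the synthetases changed in few members. LPS + DEX against basal gave 0 higher and 1 lower member, beside 1.77% of all 8847 genes tested that passed as higher and 2.86% as lower. LPS against basal gave 1 higher and 1 lower member, beside 3.3% higher and 4.32% lower genes. LPS + DEX against LPS gave 2 higher and 1 lower member, beside 3.14% and 3.55% of all genes. The members' medians were 0.04, -0.06 and -0.04 in these 3 comparisons, and those of all genes -0.05, -0.07 and 0.02.

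Vars2 was the member that rose for LPS, on few footprint reads. There were 33 and 34 in LPS + DEX, 27 and 28 in LPS and 23 and 19 in basal libraries. Its footprints were 19.96 and 18.5 CPM in LPS + DEX cells, 32.6 and 34.1 CPM in LPS cells and 17.6 and 12.5 CPM in basal cells, highest in the LPS libraries and lowest in the basal ones without overlap between groups. For LPS against basal the change was 1.12 (SE 0.27, adjusted p = 0.023), and for LPS + DEX against LPS it was -0.76 (SE 0.27, adjusted p = 0.118), which did not pass. The LPS call was lost without the filter on low values (adjusted p = 0.0734), and without basal footprint replicate 2 (0.89, adjusted p = 0.142), LPS footprint replicate 1 (1.15, adjusted p = 0.0701), LPS footprint replicate 2 (1.08, adjusted p = 0.0849), LPS + DEX footprint replicate 1 (1.12, adjusted p = 0.0633) or LPS + DEX footprint replicate 2 (1.12, adjusted p = 0.0633).

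Vars footprints were 403 and 396 CPM in LPS + DEX cells, 294 and 268 CPM in LPS cells and 346 and 335 CPM in basal cells, with LPS + DEX highest, LPS lowest and basal between, all 3 groups apart. The difference of LPS + DEX against LPS was 0.51 (SE 0.10, adjusted p = 0.00576), while against basal neither LPS + DEX (0.23 (SE 0.10, adjusted p = 0.218)) nor LPS (-0.28 (SE 0.10, adjusted p = 0.099)) passed. The first of these was lost without LPS footprint replicate 2 (0.44, adjusted p = 0.0656), LPS + DEX footprint replicate 1 (0.50, adjusted p = 0.0909) or LPS + DEX footprint replicate 2 (0.52, adjusted p = 0.108).

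Sars, the serine enzyme, which also charges the tRNA for selenocysteine, had 377 and 364 CPM in LPS + DEX cells, 540.1 and 537 CPM in LPS cells and 501 and 418 CPM in basal cells of footprints. LPS + DEX libraries were the lowest and LPS libraries the highest, with no overlap. The log2 fold change of LPS + DEX against LPS was -0.54 (SE 0.10, adjusted p = 0.00526), and Sars mRNA overlapped between groups, with 369 and 308 CPM in LPS + DEX cells, 349.9 and 344 CPM in LPS cells and 315 and 364 CPM in basal cells. The footprint call was lost without LPS footprint replicate 1 (-0.53, adjusted p = 0.0518), LPS + DEX footprint replicate 1 (-0.56, adjusted p = 0.0678) or LPS + DEX footprint replicate 2 (-0.51, adjusted p = 0.132). With either LPS + DEX footprint library left out, 0 members passed in the comparison with LPS, and without LPS footprint replicate 1 only 1 did (Vars).

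Gars, the glycine enzyme, had 377 and 389 CPM in LPS + DEX cells, 465 and 432 CPM in LPS cells and 529.7 and 482 CPM in basal cells of footprints, in the order LPS + DEX, LPS, basal from low to high with no overlap. The change was -0.40 (SE 0.09, adjusted p = 0.0239) for LPS + DEX and -0.17 (SE 0.09, adjusted p = 0.303) for LPS, both against basal. Its mRNA was 357 and 308 CPM in LPS + DEX cells, 395 and 326 CPM in LPS cells and 320.0 and 272 CPM in basal cells, with overlap between LPS + DEX and basal. The footprint call was lost without the filter on low values (adjusted p = 0.0735), and without basal footprint replicate 1 (-0.33, adjusted p = 0.0641), LPS + DEX footprint replicate 1 (-0.38, adjusted p = 0.249) or LPS + DEX footprint replicate 2 (-0.42, adjusted p = 0.189). Kars footprints, by contrast with its mRNA, overlapped between all groups, at 199.6 and 189 CPM in LPS + DEX cells, 187 and 196 CPM in LPS cells and 167 and 205 CPM in basal cells.

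**Figure D3:**
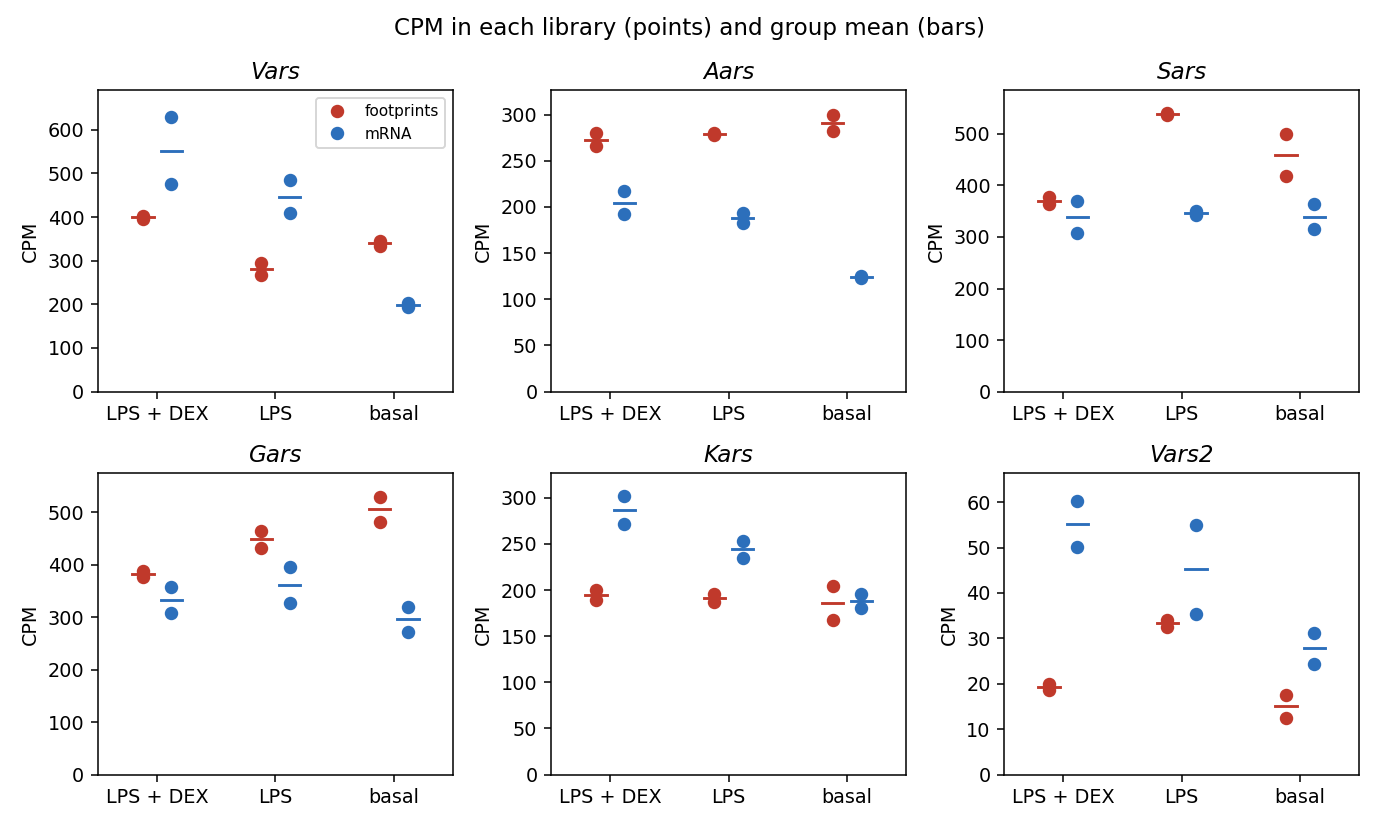
CPM of 6 synthetase genes in each library (points; bars are means of 2 libraries), footprints in red and mRNA in blue, for LPS + DEX, LPS and basal cells; each vertical axis starts at 0 and has its own scale. Vars mRNA is 408 CPM or more in treated cells and 193 to 203 CPM in basal ones while its footprints stay between 268 and 403 CPM, Kars mRNA is 235 CPM or more in treated cells and at most 196 CPM in basal ones, and Vars2 footprints are highest in LPS cells.

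Translational efficiency (TE) is the footprint value over the mRNA value, and its change is the difference of both changes, read as an interaction term from 1 limma fit of all 12 libraries. LPS + DEX against basal lowered the TE of 6 of 37 members and LPS against basal that of 4, and none that passed was higher. Of all 9412 genes tested, 12.2% passed as lower and 2.68% as higher for LPS + DEX, and 13.6% and 3.08% for LPS. The members' medians were -0.38 for LPS + DEX and -0.39 for LPS against basal, beside -0.34 over all genes in both. The mRNA change exceeded the footprint change in 30 of 37 members for LPS + DEX and in 28 for LPS. These counts restate the sign of the TE change, whose median over all genes was also negative. The share of all genes was not computed, so the counts are not read as particular to the synthetases. Between LPS + DEX and LPS, limma called 0 members and limma-voom 0, 3 members had an unadjusted p under 0.05, and 0.0531% of all genes passed in either direction.

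The TE of Vars fell by the most among those that passed for LPS and was second to Cars2 for LPS + DEX, at -1.23 (SE 0.19, adjusted p = 0.00269) for LPS + DEX and -1.44 (SE 0.19, adjusted p = 0.00131) for LPS against basal. Its mRNA values rose against basal while its footprints stayed between 268 and 403 CPM in every library. Without basal mRNA replicate 1 the changes were -1.26, adjusted p = 0.00302 and -1.48, adjusted p = 0.00108. Under median-of-ratios scaling they were -0.89, adjusted p = 0.0143 and -1.14, adjusted p = 0.00333, and the calls held under all 17 alternatives tried for each.

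The TE of Aars fell, with changes of -0.80 (SE 0.16, adjusted p = 0.00724) on the log2 scale for LPS + DEX and -0.65 (SE 0.16, adjusted p = 0.0155) for LPS against basal. Its footprints were 266 and 279.8 CPM in LPS + DEX cells, 279.7 and 277 CPM in LPS cells and 282 and 299 CPM in basal cells, slightly lower in every treated library than in the basal ones. For LPS against basal, the TE of Qars changed by -0.68 (SE 0.21, adjusted p = 0.0413). Qars footprints were 192 and 191 CPM in LPS + DEX cells, 139 and 169 CPM in LPS cells and 189 and 169 CPM in basal cells. Qars mRNA was 231 and 196 CPM in LPS + DEX cells, 163 and 198 CPM in LPS cells and 127 and 134 CPM in basal cells. Treated libraries lay above basal in mRNA, and LPS footprints overlapped the basal ones. The Qars call was lost without basal mRNA replicate 1 (-0.64, adjusted p = 0.0817), LPS mRNA replicate 2 (-0.54, adjusted p = 0.154), basal footprint replicate 1 (-0.60, adjusted p = 0.123), basal footprint replicate 2 (-0.76, adjusted p = 0.0666), LPS footprint replicate 1 (-0.54, adjusted p = 0.134), LPS + DEX footprint replicate 1 (-0.68, adjusted p = 0.0634) or LPS + DEX footprint replicate 2 (-0.68, adjusted p = 0.0635). It was also lost with limma-voom (adjusted p = 0.0747), the replicate block (adjusted p = 0.0682) and median-of-ratios scaling (-0.38, adjusted p = 0.242).

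For LPS + DEX against basal, the TE of Cars2, the cysteine enzyme of mitochondria, changed by -1.25 (SE 0.34, adjusted p = 0.0282). Its footprints were 18.1 and 20.7 CPM in LPS + DEX cells, 20.5 and 35.3 CPM in LPS cells and 35.1 and 33.5 CPM in basal cells. Cars2 mRNA was 56.5 and 54.1 CPM in LPS + DEX cells, 49.1 and 58 CPM in LPS cells and 38 and 42.2 CPM in basal cells. LPS + DEX libraries lay below basal in footprints and above basal in mRNA, and overlapped LPS in both. The call was lost without basal mRNA replicate 1 (-1.17, adjusted p = 0.0585), LPS + DEX mRNA replicate 1 (-1.22, adjusted p = 0.0801), LPS + DEX mRNA replicate 2 (-1.28, adjusted p = 0.0516), basal footprint replicate 1 (-1.22, adjusted p = 0.0793), basal footprint replicate 2 (-1.28, adjusted p = 0.0697), LPS + DEX footprint replicate 1 (-1.16, adjusted p = 0.103) or LPS + DEX footprint replicate 2 (-1.34, adjusted p = 0.0594). Mars changed by -0.83 (SE 0.21, adjusted p = 0.0216), with 221 and 183 CPM in LPS + DEX cells, 238 and 187 CPM in LPS cells and 203 and 206 CPM in basal cells of footprints, which overlapped. Mars mRNA was 213 and 183 CPM in LPS + DEX cells, 161 and 169.6 CPM in LPS cells and 107 and 119.6 CPM in basal cells, without overlap. That call was lost without LPS + DEX mRNA replicate 1 (-0.72, adjusted p = 0.0722), basal footprint replicate 1 (-0.84, adjusted p = 0.0563), basal footprint replicate 2 (-0.81, adjusted p = 0.0656) or LPS + DEX footprint replicate 2 (-0.69, adjusted p = 0.0933). Cars (-0.68 ± 0.21) and Farsa (-0.64 ± 0.20) also passed.

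Both TE counts depended on the scaling, which moved the median over all genes up by 0.29 for LPS and 0.33 for LPS + DEX against basal. Under median-of-ratios scaling Vars alone of the 37 passed in each, and the members' medians were -0.06 for LPS + DEX and -0.09 for LPS. The cytosolic median for LPS turned to 0.05. Aars stood at -0.47, adjusted p = 0.0941 for LPS + DEX and -0.36, adjusted p = 0.176 for LPS. Without basal mRNA replicate 1, 6 members passed for LPS + DEX (Aars, Aars2, Gars, Mars, Vars and Wars) and 3 for LPS. Cars2, Cars (-0.72, adjusted p = 0.065) and Farsa (-0.66, adjusted p = 0.0791) did not pass then for LPS + DEX. For LPS + DEX, 2 passed without LPS + DEX mRNA replicate 1 or basal footprint replicate 2, and 3 without basal footprint replicate 1 or either LPS + DEX footprint library. For LPS, 2 passed without basal footprint replicate 2.

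Within each treatment the 2 classes of enzyme differed in the level of TE relative to the library totals. In basal cells the footprints exceeded the mRNA, past the threshold, in 16 of 20 cytosolic members, with a median log2 ratio of 0.78. They did so in 2 of 17 mitochondrial members, while 1 was lower, with a median of -0.05. Of all genes 33.4% passed as higher and 17.3% as lower, with a median of 0.21. In LPS + DEX cells 9 cytosolic members were higher and 2 lower, and 0 mitochondrial members were higher and 4 lower, beside 23.8% and 27.2% of all genes. In LPS cells the counts were also 9 and 2 among cytosolic and 0 and 4 among mitochondrial members, beside 24.8% and 27.1% of all genes. The cytosolic and mitochondrial medians were 0.21 and -0.19 in LPS + DEX cells and 0.34 and -0.24 in LPS cells, beside -0.08 and -0.06 over all genes. The difference between the classes was not tested.

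Eprs had the highest TE of the members in every treatment, with a log2 ratio of 1.75 (SE 0.17, adjusted p = 4.26e-06) in LPS + DEX cells, 1.97 (SE 0.17, adjusted p = 1.44e-06) in LPS cells and 2.05 (SE 0.17, adjusted p = 7.54e-07) in basal cells. Next in LPS + DEX and LPS cells came Dars (aspartate), at 1.40 ± 0.18 and 1.18 ± 0.18, and Nars (asparagine), at 1.12 ± 0.14 and 1.16 ± 0.14. Dars had 247 and 273 CPM in LPS + DEX cells, 269 and 249 CPM in LPS cells and 245 and 243 CPM in basal cells of footprints. Its mRNA was 79.9 and 121 CPM in LPS + DEX cells, 125 and 103 CPM in LPS cells and 107 and 132 CPM in basal cells. Footprints exceeded mRNA in every group. Nars had 446 and 408 CPM in LPS + DEX cells, 446 and 443 CPM in LPS cells and 434 and 397 CPM in basal cells of footprints. Nars mRNA was 186 and 205 CPM in LPS + DEX cells, 231 and 171 CPM in LPS cells and 180.3 and 207 CPM in basal cells. In basal cells Iars (isoleucine), at 1.47 ± 0.17, and Lars, at 1.34 ± 0.15, came next. With basal mRNA replicate 1 left out the basal values were 2.06 for Eprs, 1.26 for Lars and 1.15 for Iars, all past the threshold, and Aars, at 1.23, lay between Lars and Iars. Differences between neighbours in this order were not tested.

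Iars had 295 and 291 CPM in LPS + DEX cells, 301 and 269 CPM in LPS cells and 331 and 312 CPM in basal cells of footprints. Iars mRNA was 170.4 and 175 CPM in LPS + DEX cells, 159 and 162 CPM in LPS cells and 92.9 and 144 CPM in basal cells, and its 2 basal mRNA libraries differed. Lars had 276 and 231 CPM in LPS + DEX cells, 182 and 241 CPM in LPS cells and 197 and 195 CPM in basal cells of footprints. Lars mRNA was 117 and 117 CPM in LPS + DEX cells, 92.8 and 98 CPM in LPS cells and 72.5 and 81.2 CPM in basal cells. TE was past the threshold and above the library totals in all 3 treatments in 8 members, all cytosolic (Aars, Dars, Eprs, Iars, Lars, Nars, Rars and Tars). The share of all genes above in all 3 treatments was not computed, so whether 8 is unusual cannot be said. Enzymes of the multisynthetase complex had a median of 1.05 in basal cells, with 7 of 8 higher and Kars the exception at -0.03 ± 0.13, and the other cytosolic genes 0.64, with 9 of 12 higher.

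At the low end, 4 members were below the totals in both LPS + DEX and LPS cells: Cars2, Kars, Tars2 and Vars. The share of all genes below in both was not computed either. Cars2 stood at -1.46 (SE 0.24, adjusted p = 0.000258) in LPS + DEX cells and -0.96 (SE 0.24, adjusted p = 0.0047) in LPS cells, the second lost without LPS footprint replicate 1 (-0.58, adjusted p = 0.0564). Kars stood at -0.55 ± 0.13 and -0.35 ± 0.13 in these treatments. Vars stood at -0.45 ± 0.14 in LPS + DEX cells and -0.66 ± 0.14 in LPS cells, against 0.78 ± 0.14 in basal cells, where it passed as higher.

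Vars2 was at -1.47 (SE 0.26, adjusted p = 0.000442) in LPS + DEX cells, -0.40 (SE 0.26, adjusted p = 0.215) in LPS cells and -0.85 (SE 0.26, adjusted p = 0.0144) in basal cells, and the basal call was lost without basal mRNA replicate 1 (-0.68, adjusted p = 0.0944) or basal footprint replicate 2 (-0.62, adjusted p = 0.124). It was also lost with limma-voom (adjusted p = 0.0567) and the replicate block (-0.68, adjusted p = 0.0925). Ears2, the glutamate enzyme of mitochondria, had 7.26 and 20.2 CPM in LPS + DEX cells, 15.7 and 20.7 CPM in LPS cells and 22.1 and 19.1 CPM in basal cells of footprints. Ears2 mRNA was 32.4 and 26.1 CPM in LPS + DEX cells, 16 and 29 CPM in LPS cells and 14.2 and 17.9 CPM in basal cells. Its 2 LPS + DEX footprint libraries lay far apart. Its TE of -1.19 (SE 0.41, adjusted p = 0.0269) in LPS + DEX cells was lost without LPS + DEX mRNA replicate 1 (-1.04, adjusted p = 0.142), LPS + DEX mRNA replicate 2 (-1.34, adjusted p = 0.0545) or LPS + DEX footprint replicate 1 (-0.51, adjusted p = 0.329). Sars2 was at -1.04 (SE 0.27, adjusted p = 0.0055) in LPS cells, lost without LPS footprint replicate 2 (-0.69, adjusted p = 0.0584).

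Under median-of-ratios scaling 12 cytosolic members were higher in basal cells and 0 lower, with a median of 0.51, and 1 mitochondrial member was higher and 2 lower, with a median of -0.32, so the order of the classes was the same. Without basal mRNA replicate 1, 15 cytosolic and 2 mitochondrial members were higher in basal cells. The ratio compares a footprint with an mRNA library and is read against the library totals, not as ribosomes per message.

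**Figure D4:**
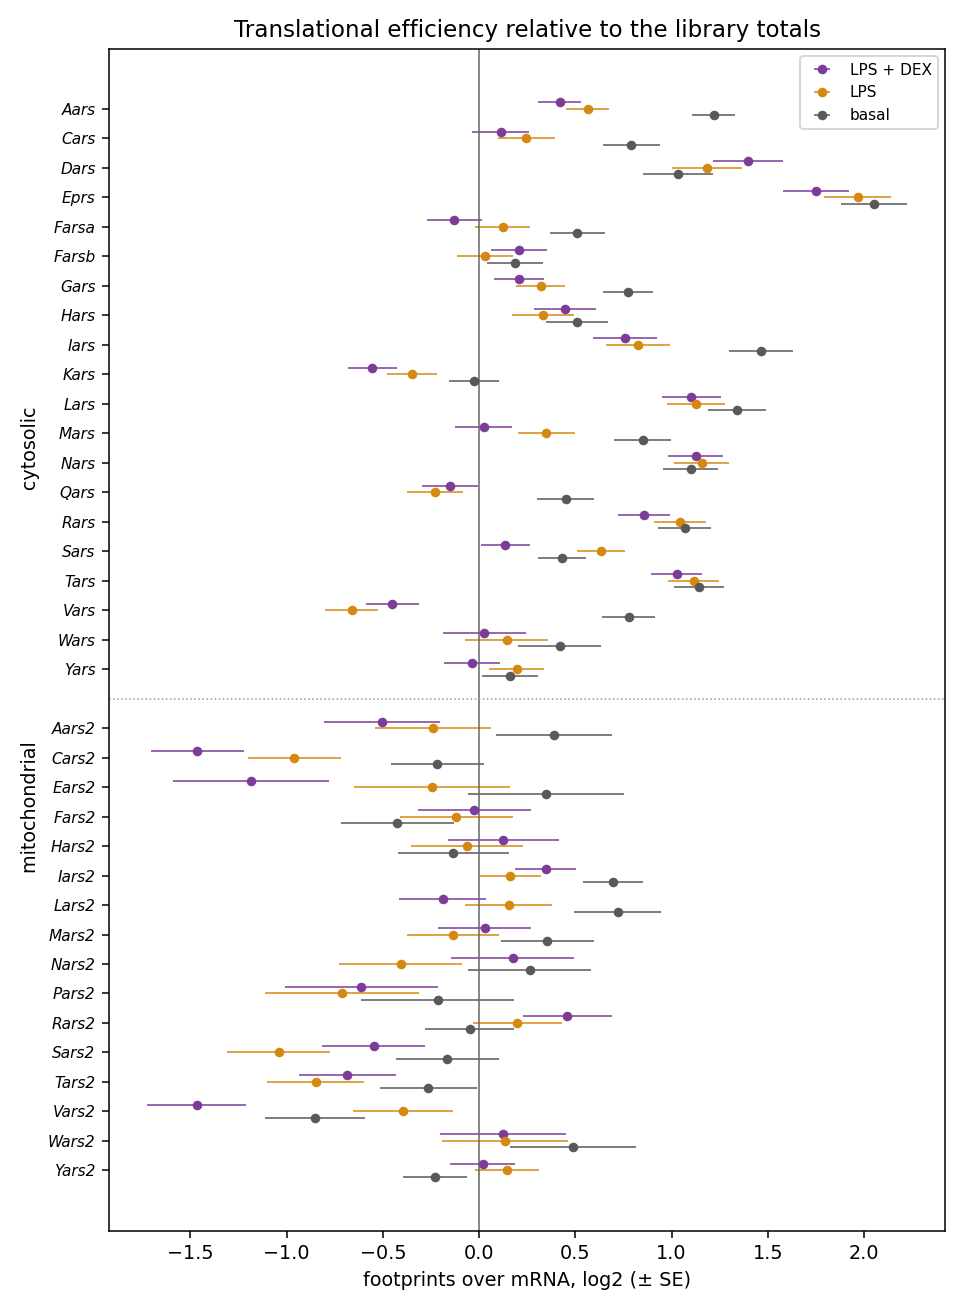
Translational efficiency of 36 synthetase genes as the log2 of footprints over mRNA (standard errors from limma) in LPS + DEX, LPS and basal cells, cytosolic genes above and mitochondrial genes below the dotted line. Eprs lies furthest right in all 3 treatments, at 1.75, 1.97 and 2.05, and Vars lies at -0.45 in LPS + DEX and -0.66 in LPS cells, against 0.78 in basal cells.

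Genes that work beside the synthetases were counted as lists, with the shares of all genes given above as background. Of 19 listed genes of amino acid supply and of the ATF4 response, 7 rose in mRNA for LPS + DEX and 5 for LPS against basal, and 0 fell, with medians of 0.52 and 0.43. The glutamine carrier Slc1a5 was at 1.11 for LPS + DEX and 0.93 for LPS, the leucine carrier Slc7a5 at 0.995 and 0.86, and the neutral amino acid carrier Slc38a2 at 0.93 and 0.96. Of these genes 18 were tested in footprints, where 3 fell for LPS + DEX and 1 for LPS against basal and 0 rose. Atf4 itself, whose coding sequence is translated under the control of upstream open reading frames, had footprint changes of -1.01 (adjusted p = 0.00429) for LPS + DEX and -0.63 (adjusted p = 0.0465) for LPS against basal. The others that fell for LPS + DEX were Slc7a5 at -0.51 and Asns, asparagine synthetase, at -0.47. Their TE was lower in 8 of 19 for LPS + DEX and in 7 for LPS.

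The counts of this list were also bound to scaling and to single libraries. Under median-of-ratios scaling 2 rose and 1 fell in mRNA for LPS + DEX and 0 rose for LPS against basal, and TE was lower in 3 of 19 for each. In footprints 1 fell for LPS + DEX and 0 for LPS under this scaling, and likewise without the filter on low values. The LPS footprint call of Atf4 was also lost with limma-voom (adjusted p = 0.0696) and the replicate block (adjusted p = 0.0533). With 1 library left out, TE was lower in 4 to 9 genes for LPS + DEX and in 3 to 7 for LPS. In mRNA, 0 rose for LPS + DEX against basal without LPS + DEX replicate 1, and 0 for LPS without either LPS library. In footprints 0 fell for LPS + DEX without either LPS + DEX library, where Atf4 stood at -1.08 (adjusted p = 0.0578, without replicate 1) and -0.94 (adjusted p = 0.105, without replicate 2). The LPS call of Atf4 was lost with any 1 of the 6 footprint libraries left out (adjusted p = 0.0567 to 0.181). Without basal mRNA replicate 1, 6 rose in mRNA for LPS + DEX and 4 for LPS.

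Of the 3 scaffold proteins of the multisynthetase complex, Aimp1 rose in footprints for LPS against basal, at 0.49 (adjusted p = 0.0208), and in TE, at 0.95 (adjusted p = 0.012), and the other two did not pass in any comparison between treatments. The Aimp1 footprint call was lost with either LPS or either LPS + DEX footprint library left out (0 of 3), and the TE call held with each library left out (1 of 3). Of the 4 genes of the eEF1 complex, Eef1b2, an exchange factor subunit, fell in mRNA, at -0.57 (adjusted p = 0.0105) for LPS + DEX and -0.51 (adjusted p = 0.0272) for LPS against basal. Without LPS + DEX mRNA replicate 1 the first was -0.58 (adjusted p = 0.0713), and the second was lost with either basal or either LPS mRNA library left out (adjusted p = 0.0501 to 0.199) and with the replicate block (adjusted p = 0.0591). Eef1a1, which carries charged tRNA to the ribosome, rose in footprints, at 0.35 (adjusted p = 0.00629) for LPS + DEX and 0.23 (adjusted p = 0.0485) for LPS against basal. Without LPS + DEX footprint replicate 2 the first was 0.31 (adjusted p = 0.117), and the second was lost with any 1 LPS + DEX or LPS footprint library left out (adjusted p = 0.0754 to 0.25). Without the filter on low values both Eef1a1 calls were lost (adjusted p = 0.121 for LPS + DEX and 0.209 for LPS). The LPS call was also lost with log2(CPM + 2) (adjusted p = 0.0504) and the replicate block (adjusted p = 0.0762). In TE change against basal, 1 of the 4 eEF1 genes passed as higher for LPS + DEX and 1 for LPS, and 0 as lower. Under median-of-ratios scaling 3 passed as higher for LPS + DEX and 2 for LPS. The LPS + DEX count did not hold with every library left out. Limma called 0 of 12 listed mitochondrial translation partners (Tufm and others) and 0 of 9 genes of tRNA proofreading in any of the 9 comparisons between treatments. Limma-voom also called 0 of either, and over these comparisons 5 and 4 values had an unadjusted p under 0.05.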

How the data were processed

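Poly(A) mRNA and ribosome footprints of RAW264 cells were sequenced on an Ion PGM, per the labels. No source used here gives the aligner, the counting or the genome build. The deposited values are CPM of a library plus 1 per gene: the lowest is 1, and after subtracting 1 all values are whole multiples of 1 read (tolerance 0.1 read), so library totals could be computed from them. Symbols were matched for 9521 of 9621 identifiers.

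Tests were run with limma 3.58.1 in R 4.3.3 (limma-trend) on the log2 of the deposited value, log2(CPM + 1), so fold changes of low genes are understated. The filter on low values kept a gene with 15 or more reads over all libraries and with 10 or more, at median depth, in 2 or more of them. The 6 libraries of an assay were fitted together, and TE in 1 fit over 12 libraries. P values are two-sided, adjusted by Benjamini-Hochberg over all genes tested, and the threshold was 0.05. Standard errors come from the fit, with 2 libraries a group. Replicates are independent per the series text; the fit assumes that all groups vary alike. The limma fit of LPS against basal within each assay was tested on simulated counts that gave all genes the same spread. The other comparisons, the TE fits and the promoter search were not simulated.

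The design planned count tests only for raw counts; these were not run, and limma-voom on the reads recovered was added after seeing the data. Other alternatives were median-of-ratios scaling, no filter, log2(CPM + 2), a replicate block and leaving out each library. Where a group was left with 1 library, that library was assumed to vary like the others.

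Members were printed in full by a rule: in each comparison the 3 highest and 3 lowest changes that passed, the 3 members with most and the 3 with fewest basal footprints in each class, and a set of 8 (Wars, Aars, Eprs, Kars, Vars, Farsa, Farsb, Lars2). Other members that are named passed a test or belong to a group described. 1 member enters the sums, counts and medians, and its own values are not reported here. Members, lists and the rule were chosen with earlier results of these data known. Sequences are from RefSeq (GRCm38.p6).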

Additional observations from a re-analysis of the deposited data

How the results depend on the processing

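Counts of members that passed, up and down together, are given in the order mRNA (LPS + DEX against basal, LPS against basal), footprints (LPS + DEX against basal, LPS against basal, LPS + DEX against LPS) and TE change (LPS + DEX against basal, LPS against basal); the main counts were 11, 2, 1, 2, 3, 6 and 4. Median-of-ratios scaling gave 1 and 1 in mRNA and 1 and 1 in TE change. Without the filter the first 2 footprint counts were 0 and 1, where more genes were tested. Limma-voom, chosen after seeing the data, gave 1 for mRNA of LPS against basal and 2 for footprints of LPS + DEX against basal. With log2(CPM + 2) no count moved. The replicate block gave 1 member for mRNA of LPS against basal and moved no other count by over 1.5 times. The deviations of libraries that share a number had correlations of -0.16 to 0.10. Noise of single libraries also lowers such correlations, so they cannot show whether libraries with the same number were handled together. Leaving out 1 library gave 0 to 12 and 0 to 4 in mRNA, 0 to 2, 1 to 3 and 0 to 3 in footprints, and 2 to 7 and 2 to 5 in TE change. The mRNA and TE counts between LPS + DEX and LPS stayed at 0 in every setting run. Counts of TE levels ranged from 11 to 15 in LPS + DEX, 13 to 16 in LPS and 16 to 19 in basal cells with 1 library left out, beside 15, 15 and 19. Of 29 named results 13 passed in every setting run, 16 were lost in at least 1 and 0 reversed. The cause of the losses was not tested. Among the 13, the only changes between treatments were the TE changes of Vars for LPS + DEX and LPS against basal. The rest of the 13 were TE levels within a treatment. All other changes between treatments among the 29 were lost in at least 1 setting. The 29 are synthetase genes among the 3 highest and 3 lowest that passed in a comparison. They leave out the genes of the lists, such as Aimp1, whose TE change is described with the lists. Mitochondrial members had as few as 5 footprint reads in a library and a median standard error of 0.27, so footprint changes of the size called in Gars and Sars were mostly not detectable in them.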
